A study of Mus musculus with 9 samples.

Results

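Mitochondrial carriers of the solute carrier 25 (SLC25) family were followed in the mouse heart after ischemia-reperfusion (I/R). The members were all protein-coding genes whose GENCODE GRCm38 symbol starts with Slc25a, with 1 gene left out by the rule. All 46 were found by Ensembl gene ID among the 38293 genes of the count table, and 39 of them passed the filter on low counts and were tested. RNA was sequenced from the left ventricle of 9 male C57BL/6 mice aged 8 weeks, and the labels give the infarcted region as the tissue in every group. Mice 1, 2 and 3 had a sham operation, and the time at which their tissue was taken is not given in the labels. In the I/R mice the left anterior descending coronary artery was tied for 1 hour and reopened. Tissue was taken at 1 day from mice 4, 5 and 6 and at 14 days from 3 further mice, whose libraries, named alike in the count table, are referred to as A, B and C in no meaningful order. No genetic change is given for any group.

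SLC25 proteins sit mostly in the inner mitochondrial membrane, which is closed to charged metabolites, and each exchanges a defined set of them between the cytosol and the matrix. In cardiac muscle the adenine nucleotide carriers release ATP and take up ADP, and the phosphate carrier supplies the phosphate used to make ATP. Other members move the malate, aspartate, glutamate and oxoglutarate of the malate-aspartate shuttle, as well as citrate, amino acids, iron and cofactors such as coenzyme A and NAD.

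The libraries held 20215781 to 36816818 counts, of which 52.0 to 71.8% came from genes of the mitochondrial genome, ribosomal RNA included. The members together took 29058 to 76107 counts per library. Levels are given as CPM, counts normalized to the size of each library after TMM scaling (trimmed mean of M values), and folds are log2 differences from edgeR. A gene was said to rise or fall where the Benjamini-Hochberg adjusted p of edgeR's quasi-likelihood test over all 14124 tested genes was under 0.05. Mouse 6 stood apart from the other mice at 1 day. On the first principal component of log CPM it lay at 37.2, mice 4 and 5 lay at 78.0 and 78.7, and the sham libraries lay between -40.9 and -35.8. The summed CPM of 6 neutrophil markers was 110 and 129 in mice 4 and 5, 47.3 in mouse 6 and 1.63 to 4.47 in sham. For 8 cardiomyocyte markers the sum was 60109 to 66052 CPM in sham, 33873 in mouse 4, 32235 in mouse 5 and 48538 in mouse 6. It was 60599, 51760 and 46288 CPM in libraries A, B and C. Summed CPM of 7 fibroblast markers was 543 to 988 in sham and 782 to 1094 at 1 day. It was 2009, 3250 and 4970 in libraries A, B and C. In bulk tissue, fewer cells of a type and less RNA per cell cannot be told apart, and the part of these cell markers in the results below was not tested.

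One day after I/R the carriers split unevenly. Of the 39 tested members, 17 fell (43.6%) and 5 rose (12.8%), where 24.8% of all tested genes fell and 29.4% rose, or 54.2% in either direction. Slc25a34, Slc25a42, Slc25a13, Slc25a11 and Slc25a3 fell furthest. Slc25a24, Slc25a1, Slc25a23, Slc25a30 and Slc25a44 were the members that rose. The 3 mice at 1 day lay below all 3 sham mice for 18 members and above them for 5, where 29.7% and 33.5% of all tested genes did so. The median log2 fold was -0.33 over the tested members and 0.04 over all tested genes. Mouse 6 was the nearest of the 3 to sham for 16 of the 17 members that fell, Slc25a51 being the exception. Without mouse 6 the count of members that fell was 18 (46.2%), where 26.4% of all tested genes fell.

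Counts of calls at 1 day moved with scaling by total count alone, for members and for all genes alike. The other scalings run were DESeq2 size factors, upper-quartile scaling, and TMM without mitochondrially encoded and ribosomal RNA genes. In each of these, 18 members fell (46.2%) and 5 rose (12.8%). Of all tested genes 26.6%, 25.8% and 25.5% fell in those fits, and 27.3%, 28.2% and 28.6% rose. With scaling by total count alone, the median of all tested genes moved up by 0.48 on the log2 scale. Then 12.8% of the tested members fell (5) and 28.2% rose (11), where 7.49% of all tested genes fell and 48.6% rose. The median log2 fold was then 0.14 over the members and 0.53 over all tested genes. A member that changed sign with that scaling had a fold smaller than this common shift, and its change of sign follows from the shift. The 5 that still fell were Slc25a3, Slc25a11, Slc25a13, Slc25a34 and Slc25a42. The folds below are therefore relative to the bulk of genes in each library.

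**Figure D1:**
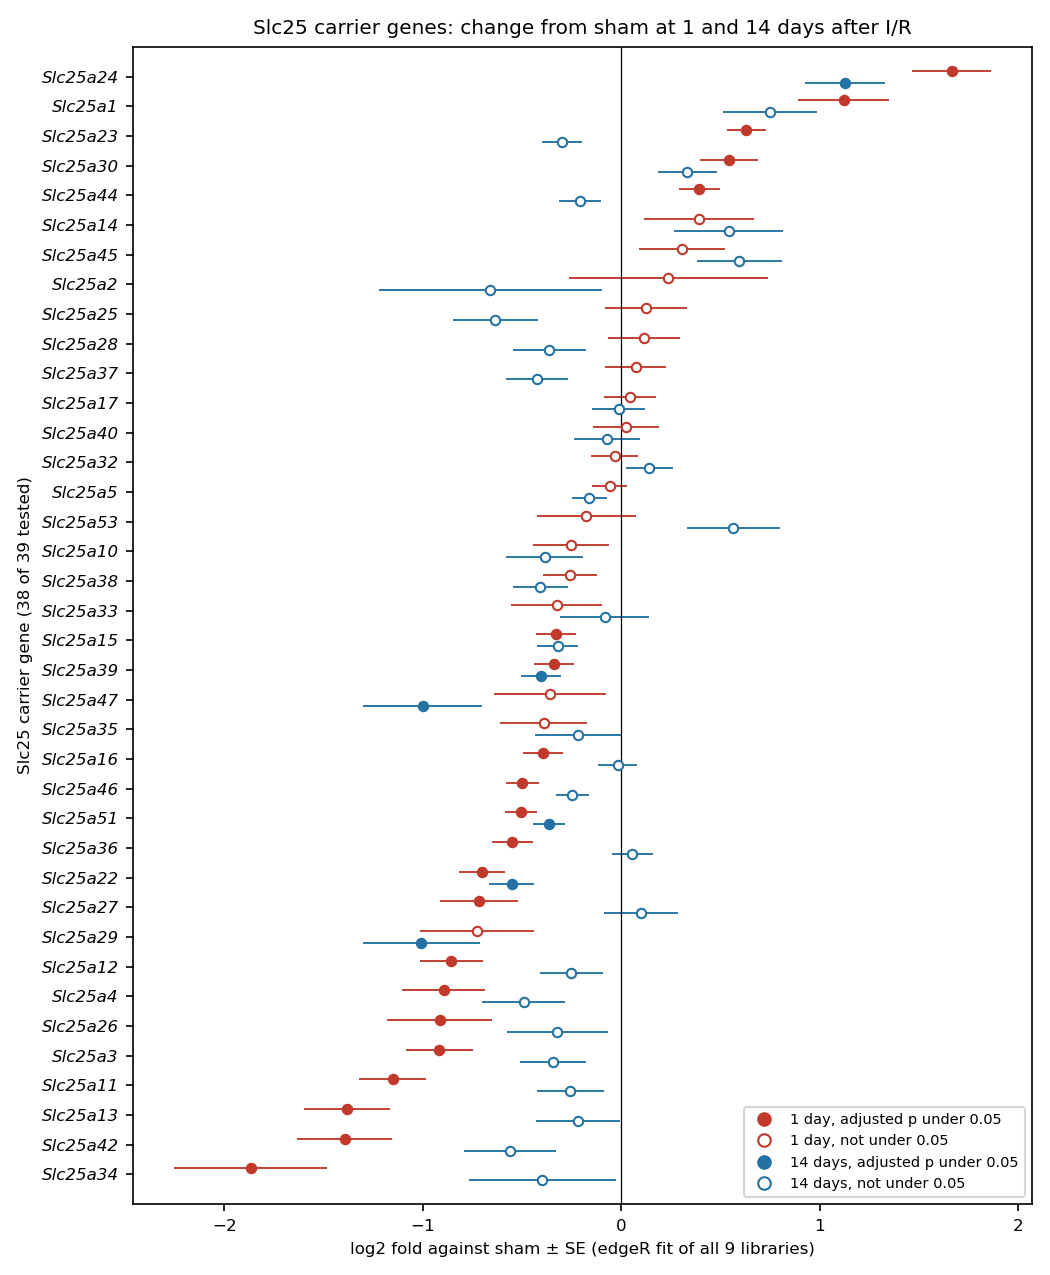
Log2 fold against sham (x axis, ± SE from the edgeR fit of 9 libraries) of 38 of the 39 tested Slc25 members (y axis) at 1 day (red) and 14 days (blue), filled where the adjusted p was under 0.05. Of the filled points 16 lie to the left and 5 to the right at 1 day, and 5 and 1 at 14 days; with scaling by total count alone 11 members change sign at 1 day, Slc25a15, Slc25a16 and Slc25a39 among those that fell, and 3 change sign at 14 days.

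At 14 days fewer members differed from sham. Slc25a24 was the 1 member that rose, and the 6 that fell included Slc25a29, Slc25a47, Slc25a22, Slc25a39 and Slc25a51. These are 2.56% and 15.4% of the tested members, where 8.75% of all tested genes rose and 5.64% fell, or 14.4% in either direction. The 14-day libraries lay below all sham libraries for 16 members and above them for 6, where 18.4% and 21.0% of all tested genes did so. The median log2 fold was -0.26 over the members and 0.01 over all tested genes. The count of members that fell changed when single libraries were left out, as did the count over all genes. It was 0 without sham mouse 1, 1 without sham mouse 2, 3 without sham mouse 3, 10 without library A, 1 without library B and 1 without library C. Over all tested genes the count that fell was 797 with all libraries, and 298, 164, 406, 1189, 207 and 277 in those fits. Leaving out mouse 6, which is in neither group but enters the shared estimate of spread, gave 14 members and 1469 of all genes. The count of members that rose was 3 without mouse 6 and 2 without library A. With scaling by total count alone 0 members fell at 14 days and 1 rose, where 0.793% of all tested genes fell and 5.10% rose.

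Set against each other, 14 days and 1 day differed for 17 members. Of these, 11 were higher at 14 days (28.2%) and 6 were lower (15.4%), where 25.1% of all tested genes were higher and 26.8% lower, or 51.9% in either direction. Groups did not overlap for 13 members in the higher direction and 6 in the lower one, where 27.3% and 29.0% of all tested genes did so. The median log2 fold was 0.15 over the members and 0.00 over all tested genes. The count of higher members was 7 without mouse 4, where that of all genes went from 3547 to 2719. The count of lower members was 3 without mouse 5 and 3 without library B, where that of all genes went from 3788 to 3215 and 3180. With scaling by total count alone the median of all tested genes moved by -0.39, and 3 members (7.69%) were higher and 13 (33.3%) lower at 14 days, where 7.55% of all tested genes were higher and 38.7% lower.

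The 3 comparisons share groups, so their calls are given side by side and not as support for each other. Among the 17 members that fell at 1 day, 10 did not pass the test at 14 days against sham and were higher at 14 days than at 1 day. They were Slc25a3, Slc25a11, Slc25a12, Slc25a13, Slc25a16, Slc25a27, Slc25a34, Slc25a36, Slc25a42 and Slc25a46. Of all tested genes 24.8% fell at 1 day, 5.64% fell at 14 days and 25.1% were higher at 14 days than at 1 day. How many of all genes share the joint pattern was not counted, so it is not given as a trait of the carriers. With scaling by total count alone Slc25a16 turned sign at 1 day, and Slc25a16 and Slc25a46 turned sign between the 2 times. Slc25a22, Slc25a39 and Slc25a51 were among the members that passed as lower at both times, although Slc25a39 turned sign at 1 day with scaling by total count alone. Slc25a4, Slc25a15 and Slc25a26 passed as lower at 1 day and in no other comparison, and Slc25a15 turned sign at 1 day with that scaling. For 11 members no comparison passed the test. They were Slc25a2, Slc25a5, Slc25a10, Slc25a14, Slc25a17, Slc25a32, Slc25a33, Slc25a35, Slc25a38, Slc25a40 and Slc25a45.

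**Figure D2:**
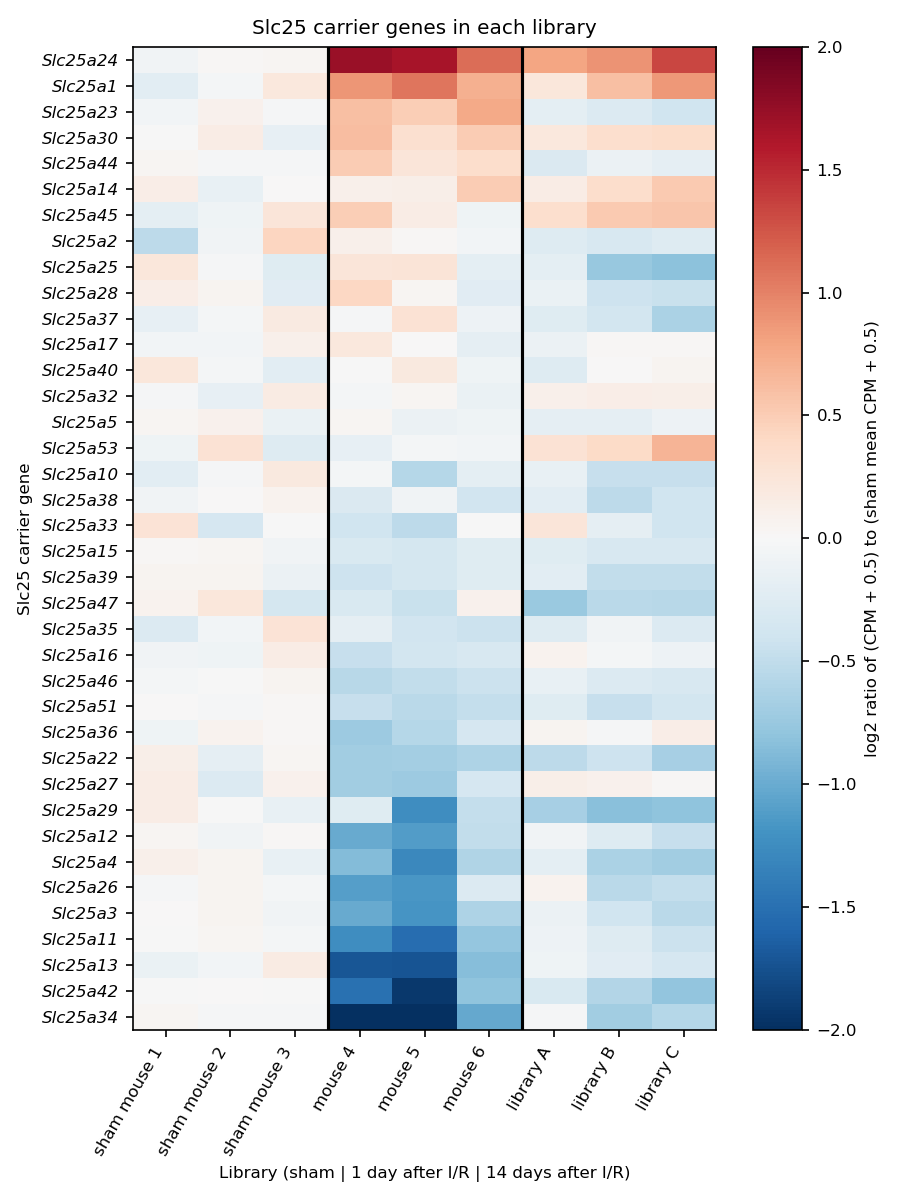
Heat map of the log2 ratio of (CPM + 0.5) to (sham mean CPM + 0.5) for 38 of the 39 tested members (rows, in the order of their fold at 1 day) in the 9 libraries (columns). The blue block at the lower part of the 1-day columns is palest in mouse 6, and among 14-day libraries the red of Slc25a24 is deepest in library C; the colours use TMM-scaled CPM, and with scaling by total count alone 11 members change sign at 1 day.

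Levels between genes were compared as CPM per kilobase of exon. In sham Slc25a4 stood far above the rest, at 573 ± 51.4 CPM per kb (SD, n = 3). Slc25a11 followed at 77.2 ± 2.25, then Slc25a3 at 67.6 ± 2.89 and, next to each other with overlapping libraries, Slc25a5 at 28.6 ± 2.18 and Slc25a34 at 28.5 ± 0.73 CPM per kb. Slc25a13 came next at 21.4 ± 2.41, and Slc25a12 at 12.2 ± 0.53 overlapped Slc25a39 at 11.9 ± 0.77 CPM per kb. Slc25a46 and Slc25a51, at 9.46 ± 0.32 and 6.75 ± 0.13 CPM per kb, did not overlap their neighbours. Slc25a42 and Slc25a36 followed at 3.90 ± 0.02 and 3.76 ± 0.21 CPM per kb, overlapping each other. Below them most neighbours in the order overlapped. At 1 day the mean of Slc25a34 was 7.89 ± 5.20 CPM per kb, under that of Slc25a5 at 27.5 ± 1.59.

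Slc25a4 alone supplied 47.5 to 55.3% of the members' counts in each library. The summed CPM of all 46 members was 2600, 2565 and 2358 in sham mice 1, 2 and 3, with a mean of 2508 ± 131 (SD, n = 3). At 1 day the mean was 1416 ± 273 CPM and at 14 days 1918 ± 289 CPM. The 1-day and 14-day libraries all lay below the sham libraries, and the 14-day libraries all lay above those of 1 day. The last separation was narrow, with library C at 1713 CPM and mouse 6 at 1698 CPM. The log2 ratio of means was -0.82 at 1 day, -0.39 at 14 days, and 0.44 between the 2 times. Each gave p = 0.1 in a two-sided exact permutation test of 3 against 3 libraries, which is the smallest p this design can give. Without Slc25a4 the sums were 1161 ± 12.2, 690 ± 107 and 960 ± 104 CPM. With scaling by total count alone the log2 ratio was -0.36 at 1 day (exact permutation p = 0.2) and 0.05 between the 2 times (exact permutation p = 0.9). With TMM scaling without mitochondrially encoded and ribosomal RNA genes it was 0.44 between the 2 times (exact permutation p = 0.2).

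**Figure D3:**
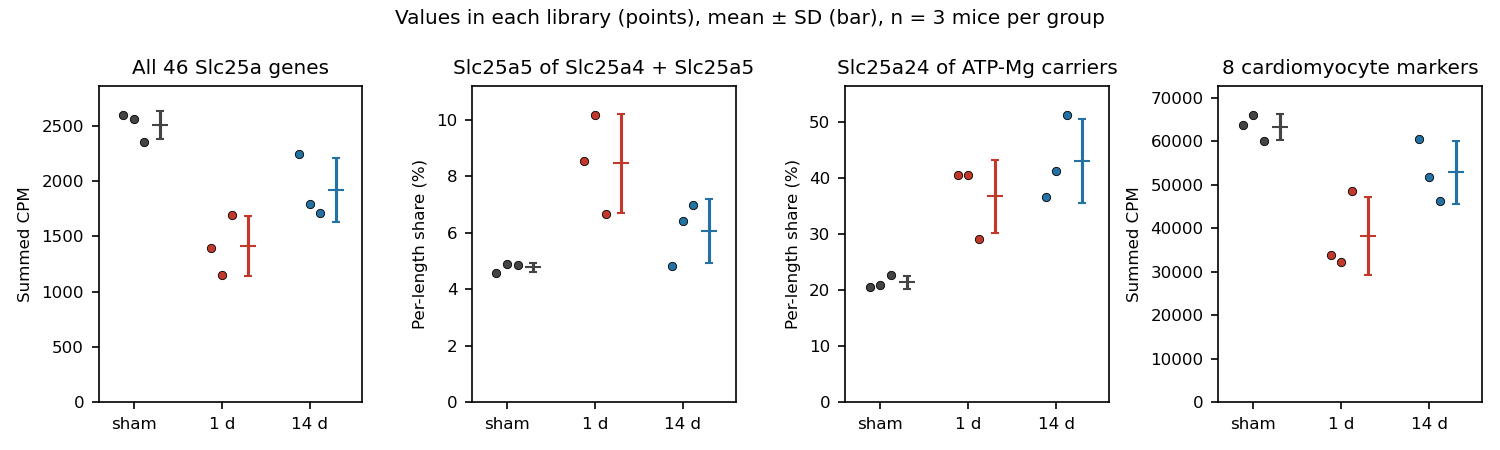
Summed CPM of all 46 members, the per-length share of Slc25a5 in Slc25a4 plus Slc25a5, the per-length share of Slc25a24 among 3 ATP-Mg/phosphate carriers, and summed CPM of 8 cardiomyocyte markers (y axes) in sham, 1-day and 14-day libraries (x axis), with points for libraries and bars for mean ± SD of 3 mice. The summed CPM means are 2508, 1416 and 1918, and mouse 6 is the highest 1-day point in the first and last panels; with scaling by total count alone the 14-day to 1-day log2 ratio of the first panel is 0.05.

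The adenine nucleotide carriers exchange matrix ATP for cytosolic ADP. Slc25a4 (chromosome 8, 46206797 to 46211284) encodes the form that prevails in heart and skeletal muscle, and Slc25a5 (chromosome X, 36795651 to 36798807) a form found in most tissues. Slc25a4 was at 1439, 1392 and 1210 CPM in sham mice 1, 2 and 3, at 741, 548 and 887 CPM in mice 4, 5 and 6, and at 1173, 867 and 835 CPM in libraries A, B and C. Every library after I/R lay below every sham library, and the 1-day and 14-day libraries overlapped. Slc25a4 fell by 0.89 on the log2 scale at 1 day (SE 0.21, edgeR adjusted p = 0.00392), to 53.8% of the sham mean. With scaling by total count alone Slc25a4 was at -0.42 and lost that call (edgeR adjusted p = 0.0978). At 14 days its log2 fold was -0.49 (95% interval -0.95 to -0.04, edgeR adjusted p = 0.139). Slc25a5 was at 48.3, 50.04 and 43.1 CPM in sham, 48.3, 43.4 and 44.3 CPM at 1 day and 41.4, 41.5 and 43.8 CPM at 14 days. Its groups overlapped throughout, and the log2 fold at 1 day was -0.06 (95% interval -0.25 to 0.14, edgeR adjusted p = 0.602). With scaling by total count alone that fold was 0.43 (edgeR adjusted p = 0.0573).

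A share within a library does not depend on the scaling. Slc25a5 made up 4.58, 4.89 and 4.85% of the per-length level of Slc25a4 plus Slc25a5 in sham. The share was 8.53, 10.2 and 6.66% in mice 4, 5 and 6, and 4.81, 6.40 and 6.98% in libraries A, B and C. All 3 mice at 1 day lay above sham, while library A lay among the sham libraries. The difference from sham was 3.68 percentage points at 1 day (exact permutation p = 0.1) and 1.29 at 14 days (exact permutation p = 0.3). A processed pseudogene, Slc25a5-ps, held 7 counts in all libraries against 11214 for Slc25a5. Slc25a31, the adenine nucleotide carrier known from testis, had 43 counts in all and was not tested.

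**Figure D4:**
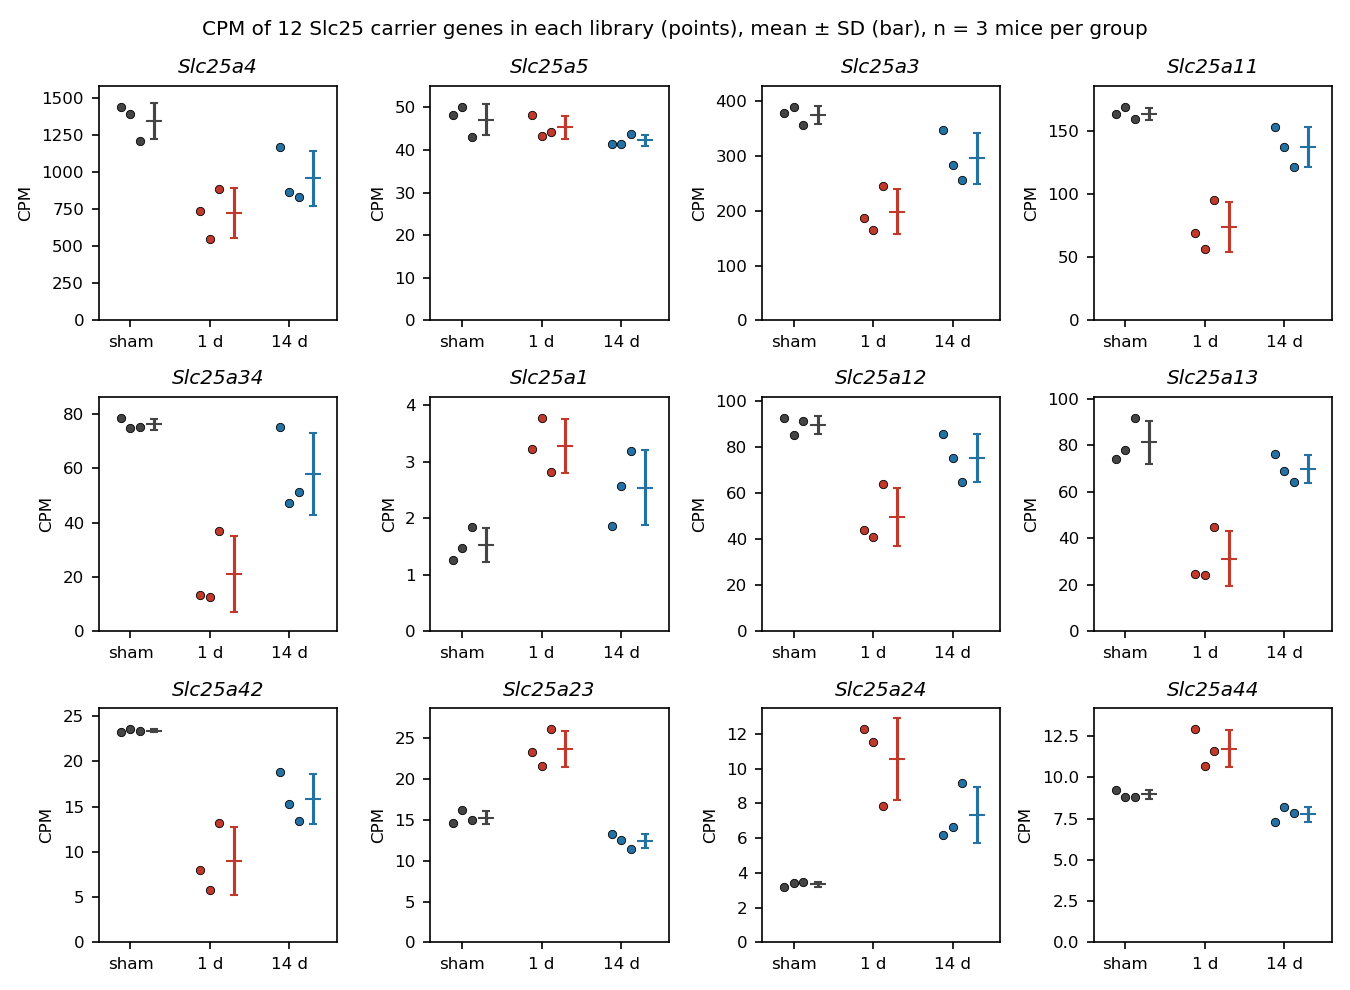
CPM (y axes, from 0) of 12 Slc25 members in sham, 1-day and 14-day libraries (x axes), with points for libraries and bars for mean ± SD of 3 mice. Slc25a4, Slc25a3, Slc25a11, Slc25a34, Slc25a12, Slc25a13 and Slc25a42 are lower in every 1-day library than in every sham library, Slc25a1, Slc25a23, Slc25a24 and Slc25a44 are higher, and Slc25a5 overlaps; the first 7 keep a negative and the next 4 a positive fold at 1 day with scaling by total count alone, where Slc25a5 turns from -0.06 to 0.43. Slc25a4 and Slc25a12 lose the call at 1 day with that scaling.

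Slc25a3 encodes the phosphate carrier, which brings phosphate into the matrix together with a proton, and it is the only member of its kind. Slc25a3 was at 379, 389 and 357 CPM in sham mice 1, 2 and 3, at 186, 165 and 245 CPM in mice 4, 5 and 6, and at 347, 283 and 257 CPM in libraries A, B and C. The 3 groups did not overlap. It fell by 0.92 at 1 day (SE 0.17, edgeR adjusted p = 0.00092) and was 0.57 higher at 14 days than at 1 day (SE 0.17, edgeR adjusted p = 0.0135). The rise between the 2 times lost its call without mouse 4 (edgeR adjusted p = 0.0566) and without mouse 5 (edgeR adjusted p = 0.0573). With scaling by total count alone Slc25a3 was 0.19 higher, also without a call (edgeR adjusted p = 0.411). Against sham the fold at 14 days was -0.34 (95% interval -0.71 to 0.02).

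A search for 3 motifs was made in the RefSeq promoters of GRCm38.p6, from 250 bases before to 50 after the start, on both strands. Promoters were found for 35 of the 46 members, as 45 entries. The estrogen-related receptor motif TNAAGGTCA was in 0 of the 45 entries and in 1.28% of all 32851 promoters. The motif of nuclear respiratory factor 1, given by name, was in 2 of the 45, those of Slc25a3 and Slc25a31, and in 4.60% of all promoters. For the C/EBP-ATF motif of stress-induced genes a loose pattern was searched, TGANGCAA, in which N stands for any base. This pattern was in 3 of the 45 entries and in 3.69% of all promoters. Of these 3 entries, 2 belong to Slc25a23 and 1 to Slc25a14, and the match in each reads TGAGGCAA. Whether TGAGGCAA serves as a C/EBP-ATF site was not tested. A match is a description of the letters in these windows and no evidence of binding. The promoters of Slc25a3, which fell at 1 day, and of Slc25a23, which rose, are shown, 1 of the 2 entries of Slc25a23, as those with a match among the members given by library. They lie on the minus strand at chr10:91123918-91124217 and chr17:57059814-57060113, read 5′ to 3′ in the direction of transcription. The letters that match a searched pattern are in capitals (on the opposite strand in Slc25a3).
Slc25a3: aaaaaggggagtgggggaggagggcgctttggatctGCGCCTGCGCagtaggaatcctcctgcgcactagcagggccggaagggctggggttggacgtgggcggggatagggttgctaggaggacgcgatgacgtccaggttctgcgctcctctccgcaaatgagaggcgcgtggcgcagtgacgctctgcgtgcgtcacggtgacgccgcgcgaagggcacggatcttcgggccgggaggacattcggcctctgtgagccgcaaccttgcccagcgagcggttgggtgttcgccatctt
Slc25a23: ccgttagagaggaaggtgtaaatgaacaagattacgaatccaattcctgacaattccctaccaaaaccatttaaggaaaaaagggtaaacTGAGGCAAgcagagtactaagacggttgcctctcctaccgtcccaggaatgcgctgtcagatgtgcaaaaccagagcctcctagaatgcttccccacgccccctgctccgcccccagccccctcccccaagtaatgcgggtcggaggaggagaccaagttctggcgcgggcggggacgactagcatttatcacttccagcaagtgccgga

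The malate-aspartate shuttle carries reducing equivalents into the matrix through the oxoglutarate carrier Slc25a11 and the aspartate-glutamate carriers Slc25a12 and Slc25a13. All 3 fell at 1 day and were higher at 14 days than at 1 day. Slc25a11 (chromosome 11, 70644196 to 70647479) was at 163, 169 and 159 CPM in sham, at 69.2, 56.7 and 95.2 CPM in mice 4, 5 and 6, and at 153, 137 and 121 CPM in libraries A, B and C. It fell by 1.15 at 1 day (SE 0.17, edgeR adjusted p = 0.000282) and was 0.90 higher at 14 days than at 1 day (SE 0.17, edgeR adjusted p = 0.00124). Its 3 groups did not overlap, the 14-day libraries lying between the other groups.

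Slc25a13, the aspartate-glutamate carrier also called citrin, (chromosome 6, 6041218 to 6217173) was at 74.1, 78.1 and 91.6 CPM in sham, at 24.5, 24.3 and 45.0 CPM at 1 day and at 76.2, 69.1 and 64.3 CPM at 14 days. Sham and 14-day libraries overlapped and the 1-day mice lay below both, mouse 6 highest. Slc25a13 fell by 1.38 at 1 day (SE 0.22, edgeR adjusted p = 0.000533) and was 1.17 higher at 14 days than at 1 day (SE 0.22, edgeR adjusted p = 0.00144). Slc25a12, or aralar, (chromosome 2, 71271063 to 71367749) was at 92.7, 85.4 and 91.5 CPM in sham, 44.2, 41.0 and 63.9 CPM at 1 day and 85.8, 75.5 and 65.0 CPM at 14 days. The 1-day mice again lay below both other groups, and library A reached the sham range. It fell by 0.86 at 1 day (SE 0.16, edgeR adjusted p = 0.00109) and was 0.60 higher at 14 days than at 1 day (SE 0.16, edgeR adjusted p = 0.00854). With scaling by total count alone the fall of Slc25a12 had an edgeR adjusted p of 0.0581, and its rise between the 2 times one of 0.286. Slc25a13 made up 60.7 to 65.9% of the per-length level of this pair in sham, 51.7 to 57.6% at 1 day and 63.2 to 65.7% at 14 days, so the 1-day libraries lay below both other groups; this share was not tested.

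Slc25a22 and Slc25a18 encode carriers that bring glutamate into the matrix. Slc25a22 was at 13.02, 10.4 and 12.3 CPM in sham, 7.15, 7.27 and 7.57 CPM at 1 day and 8.14, 8.82 and 7.36 CPM at 14 days. Every library after I/R lay below every sham library. It fell by 0.70 at 1 day (SE 0.11, edgeR adjusted p = 0.000489) and by 0.55 at 14 days (SE 0.11, edgeR adjusted p = 0.011), and the second call was lost without sham mouse 1 (edgeR adjusted p = 0.0518). With scaling by total count alone both calls were lost, with folds of -0.22 and -0.46 (edgeR adjusted p = 0.345 and 0.189). Slc25a18 had 26 counts in all libraries and was not tested.

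Carriers of di- and tricarboxylates went in different directions. Slc25a34 (chromosome 4, 141618824 to 141623821), whose substrate is not settled and whose sequence relates it to oxaloacetate carriers, had the largest negative fold of all members at 1 day. It was at 78.4, 74.8 and 75.1 CPM in sham, at 13.5, 12.6 and 37.1 CPM in mice 4, 5 and 6, and at 75.1, 47.0 and 51.3 CPM in libraries A, B and C. Mouse 6 was nearest to sham at 1 day, and library A reached the sham range at 14 days. Slc25a34 fell by 1.87 at 1 day (SE 0.39, edgeR adjusted p = 0.00328), to 27.7% of the sham mean, and was 1.47 higher at 14 days than at 1 day (SE 0.38, edgeR adjusted p = 0.0111). The second call was lost without library A (edgeR adjusted p = 0.0653). Against sham the fold at 14 days was -0.40 (95% interval -1.23 to 0.44).

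Slc25a1 (chromosome 16, 17925223 to 17928219) encodes the citrate carrier, which exports citrate for lipid synthesis, and its level was low in this tissue. It was at 1.26, 1.48 and 1.85 CPM in sham, at 3.24, 3.77 and 2.82 CPM at 1 day and at 1.87, 2.58 and 3.19 CPM at 14 days. The I/R libraries all lay above sham. Slc25a1 rose by 1.12 at 1 day (SE 0.23, edgeR adjusted p = 0.0018), and its fold at 14 days was 0.75 (SE 0.23, edgeR adjusted p = 0.0528). Mouse 6 was the nearest to sham at 1 day and library C the highest at 14 days, the library with the highest fibroblast marker sum. The dicarboxylate carrier Slc25a10, at 3.39 to 4.67 CPM in sham, and Slc25a35, at 1.46 to 2.36 CPM in sham, passed no test. Their log2 folds at 1 day were -0.25 and -0.39, and both turned sign with scaling by total count alone. Slc25a21, the oxodicarboxylate carrier, had 6 counts in all libraries.

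The ATP-Mg/phosphate carriers set the total pool of adenine nucleotides in the matrix, and those of Slc25a23, Slc25a24 and Slc25a25 are switched on by calcium. Of their 3 tested members, Slc25a24 and Slc25a23 rose at 1 day, Slc25a25 passed no test against sham, and all 3 were lower at 14 days than at 1 day. Slc25a24 (chromosome 3, 109123149 to 109168457) was at 3.18, 3.40 and 3.45 CPM in sham, at 12.3, 11.5 and 7.84 CPM in mice 4, 5 and 6, and at 6.16, 6.65 and 9.20 CPM in libraries A, B and C. Every I/R library lay above sham, while the 2 times overlapped. Slc25a24 rose by 1.67 at 1 day (SE 0.20, edgeR adjusted p = 8.93e-05), to 315% of the sham mean, and by 1.13 at 14 days (SE 0.20, edgeR adjusted p = 0.00611). Mouse 6, the lowest for Slc25a24 at 1 day, also had the lowest neutrophil marker sum, and library C, the highest at 14 days, had the highest fibroblast marker sum. Summed CPM of 7 monocyte and macrophage markers, of which 5 rose at each time, was 108 to 120 in sham, 203 to 235 at 1 day and 165 to 319 at 14 days. Mouse 6 was the lowest of the 1-day mice and library C the highest of the 14-day libraries in this sum too, and the part of these cells was not tested. The fall of 0.54 between the 2 times (SE 0.18, edgeR adjusted p = 0.0264) lost its call without mouse 4, mouse 5, library A or library B (edgeR adjusted p = 0.132, 0.0837, 0.0846 and 0.0996).

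Slc25a23 (chromosome 17, 57043711 to 57059863), whose promoter is shown above, was the most abundant of these 3 per length in sham. It was at 14.6, 16.2 and 15.0 CPM in sham, at 23.3, 21.6 and 26.1 CPM at 1 day and at 13.2, 12.5 and 11.5 CPM at 14 days. Here mouse 6 was the highest 1-day library, and the 3 groups did not overlap. Slc25a23 rose by 0.63 at 1 day (SE 0.10, edgeR adjusted p = 0.00038) and was 0.93 lower at 14 days than at 1 day (log2 fold -0.93, SE 0.10, edgeR adjusted p = 4.53e-05). Against sham its fold at 14 days was -0.30 (95% interval -0.52 to -0.08, edgeR adjusted p = 0.0675).

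Slc25a25 was at 6.53, 5.39 and 4.54 CPM in sham, 6.61, 6.63 and 4.75 CPM at 1 day and 4.71, 3.05 and 2.90 CPM at 14 days. Sham and 1-day libraries overlapped. Its log2 fold of -0.76 at 14 days against 1 day passed (SE 0.21, edgeR adjusted p = 0.0102) but not without library B (edgeR adjusted p = 0.0505). Of the per-length level of these 3 carriers, Slc25a24 made up 20.5 to 22.8% in sham, 29.2 to 40.5% at 1 day and 36.7 to 51.4% at 14 days, with no library after I/R in the sham range; this share was not tested. The fourth gene of the group, Slc25a41, had 0 counts in all libraries, which allows up to 0.0121 CPM over the 9 libraries from counting error alone.

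Among amino acid carriers, Slc25a44 (chromosome 3, 88410498 to 88425139) imports branched-chain amino acids. It was at 9.25, 8.80 and 8.82 CPM in sham, at 12.9, 10.7 and 11.6 CPM at 1 day and at 7.27, 8.18 and 7.81 CPM at 14 days. The 3 groups did not overlap, with 1 day on top. Slc25a44 rose by 0.39 at 1 day (SE 0.10, edgeR adjusted p = 0.00736), and its log2 fold at 14 days against 1 day was -0.60 (SE 0.10, edgeR adjusted p = 0.000682). Against sham its fold at 14 days was -0.21 (95% interval -0.44 to 0.02).

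Slc25a29, a carrier of basic amino acids, was at 2.68, 2.36 and 2.11 CPM in sham, 1.95, 0.715 and 1.57 CPM at 1 day and 1.32, 1.11 and 1.14 CPM at 14 days. All I/R libraries lay below sham. It fell by 1.01 at 14 days (SE 0.29, edgeR adjusted p = 0.0419), a call lost without sham mouse 1, 2 or 3, library B or library C (edgeR adjusted p = 0.138, 0.126, 0.0754, 0.143 and 0.113). At 1 day its log2 fold was -0.72 (edgeR adjusted p = 0.0503). Slc25a15, the ornithine carrier of the urea cycle, was at 7.79, 7.92 and 7.28 CPM in sham, 6.09, 5.88 and 6.41 CPM at 1 day and 6.41, 6.01 and 6.05 CPM at 14 days. Sham lay above both other groups, which overlapped. Slc25a15 fell by 0.33 at 1 day (SE 0.10, edgeR adjusted p = 0.018), but with scaling by total count alone the fold was 0.15. That call was lost without sham mouse 1, sham mouse 2 or mouse 5 (edgeR adjusted p = 0.0527, 0.0661 and 0.0631). The glycine carrier Slc25a38 and the ornithine carrier Slc25a2 passed no test, and Slc25a48 had 1 count in all.

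The mitoferrins Slc25a37 and Slc25a28 bring iron into mitochondria for heme and iron-sulfur clusters. Neither differed from sham by the test at either time, and both were lower at 14 days than at 1 day. Slc25a37 was at 6.49, 7.14 and 8.31 CPM in sham, 7.15, 9.05 and 6.77 CPM at 1 day and 6.13, 5.54 and 4.54 CPM at 14 days. The 14-day libraries lay below both other groups, with a log2 fold of -0.50 against 1 day (SE 0.15, edgeR adjusted p = 0.0181). The call was lost without mouse 5 or library C (edgeR adjusted p = 0.083 and 0.0745). Slc25a28 was at 6.78, 6.37 and 5.18 CPM in sham, 8.33, 6.27 and 5.15 CPM at 1 day and 5.51, 4.48 and 4.37 CPM at 14 days. Its groups overlapped, with a log2 fold of -0.48 against 1 day (SE 0.18, edgeR adjusted p = 0.0431). That call was lost when mouse 4, mouse 5, library B, library C, sham mouse 1 or sham mouse 2 was left out (edgeR adjusted p = 0.254, 0.0643, 0.132, 0.117, 0.0564 and 0.063). Summed CPM of 5 erythroid markers, which bears on blood in the tissue, was 93.4 to 154 in sham, 51.7 to 73.4 at 1 day and 99.3 to 120 at 14 days, and its part was not tested.

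Of the 11 carriers of cofactors and nucleotides, 7 fell at 1 day and 3 at 14 days, and 0 rose against sham. Over all tested genes 24.8% fell and 29.4% rose at 1 day, and 5.64% fell and 8.75% rose at 14 days. Slc25a42 (chromosome 8, 70184340 to 70212305) takes coenzyme A into the matrix in exchange for adenine nucleotides. It was at 23.3, 23.5 and 23.3 CPM in sham, at 7.99, 5.80 and 13.1 CPM in mice 4, 5 and 6, and at 18.8, 15.3 and 13.4 CPM in libraries A, B and C. The 3 groups did not overlap, although mouse 6 came within a small step of library C. Slc25a42 fell by 1.39 at 1 day (SE 0.24, edgeR adjusted p = 0.000983), to 38.4% of the sham mean. It was 0.83 higher at 14 days than at 1 day (SE 0.24, edgeR adjusted p = 0.0152), a call lost without mouse 4 or library A (edgeR adjusted p = 0.0539 and 0.0592). With scaling by total count alone Slc25a42 was 0.45 higher, also without a call (edgeR adjusted p = 0.0946). Against sham its fold at 14 days was -0.56 (95% interval -1.08 to -0.04, edgeR adjusted p = 0.138).

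Slc25a39, a glutathione carrier, was at 33.8, 34.0 and 30.2 CPM in sham, 24.4, 25.6 and 27.6 CPM at 1 day and 28.0, 23.0 and 23.2 CPM at 14 days. All I/R libraries lay below sham. It fell by 0.34 at 1 day (SE 0.10, edgeR adjusted p = 0.0132) and by 0.40 at 14 days (SE 0.10, edgeR adjusted p = 0.0218), and the 1-day fold was 0.13 with scaling by total count alone. The 1-day call was lost without sham mouse 2 (edgeR adjusted p = 0.0534), and the 14-day call without sham mouse 1, sham mouse 2, library B or library C (edgeR adjusted p = 0.0844, 0.105, 0.105 and 0.0905). Its relative Slc25a40 was at 3.32 to 4.69 CPM in sham, with a log2 fold of 0.03 at 1 day (95% interval -0.34 to 0.39).

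Slc25a51, which imports NAD, was at 37.3, 36.4 and 37.8 CPM in sham, 26.8, 25.3 and 26.5 CPM at 1 day and 31.2, 26.9 and 28.7 CPM at 14 days. Its 3 groups did not overlap, and it was the fallen member in which mouse 6 was not nearest to sham. Slc25a51 fell by 0.50 at 1 day (SE 0.08, edgeR adjusted p = 0.00047) and by 0.36 at 14 days (SE 0.08, edgeR adjusted p = 0.0149). The 14-day call was lost without sham mouse 1, 2 or 3, library B or library C (edgeR adjusted p = 0.0555, 0.0614, 0.053, 0.0796 and 0.0526). With scaling by total count alone both calls were lost, with folds of -0.018 at 1 day and -0.26 at 14 days (edgeR adjusted p = 0.936 and 0.442).

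Other cofactor and nucleotide carriers that fell at 1 day were Slc25a26, the S-adenosylmethionine carrier, Slc25a36, a pyrimidine nucleotide carrier, and Slc25a16, which is linked to coenzyme A. Their log2 folds were -0.91, -0.55 and -0.39. With scaling by total count alone the folds were -0.45, -0.08 and 0.09, and each call was lost (edgeR adjusted p = 0.127, 0.700 and 0.689). Slc25a36 and Slc25a16 were higher at 14 days than at 1 day, by 0.60 and 0.38. With scaling by total count alone they were at 0.24 and -0.01 (edgeR adjusted p = 0.246 and 0.978). The fall of Slc25a26 lost its call without mouse 4 or mouse 5 (edgeR adjusted p = 0.0601 and 0.0522). Slc25a17, which works in peroxisomes, the folate and FAD carrier Slc25a32 and the pyrimidine nucleotide carrier Slc25a33 passed no test. Exons of other genes overlap exonic bases of 14 members, 2 of them at 10% or more. On the opposite strand they cover 14.9% of the exonic bases of Slc25a33 and 31.3% of those of Slc25a35. Among members given by library the largest such overlaps were 8.92% for Slc25a11, 7.06% for Slc25a46, 6.33% for Slc25a37 and 4.82% for Slc25a25. The libraries were stranded, but the strand setting of the counting is not given, so counts of these members may hold reads of neighbours. On the same strand, overlaps cover 2.27% of the exonic bases of Slc25a51 and 0.168% of those of Slc25a47.

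Carriers that resemble uncoupling proteins also went apart. Slc25a30 was at 3.06, 3.47 and 2.68 CPM in sham, 4.98, 3.97 and 4.57 CPM at 1 day and 3.64, 3.99 and 4.13 CPM at 14 days. All I/R libraries lay above sham, and Slc25a30 rose by 0.54 at 1 day (SE 0.15, edgeR adjusted p = 0.00895). The call was lost without mouse 4 (edgeR adjusted p = 0.0559). Slc25a27, known mainly from brain, was at 3.10, 2.19 and 2.94 CPM in sham, 1.49, 1.47 and 2.06 CPM at 1 day and 3.01, 2.93 and 2.78 CPM at 14 days. The 1-day mice lay below both other groups, which overlapped. Slc25a27 fell by 0.72 at 1 day (SE 0.20, edgeR adjusted p = 0.00967) and was 0.81 higher at 14 days than at 1 day (SE 0.19, edgeR adjusted p = 0.00446). With scaling by total count alone both calls were lost, with folds of -0.24 and 0.43 (edgeR adjusted p = 0.438 and 0.177). Slc25a14, at 0.64 to 0.88 CPM in sham, passed no test, with a log2 fold of 0.39 at 1 day (95% interval -0.22 to 1.00).

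Slc25a46 differs from the rest in sitting in the outer mitochondrial membrane, where it takes part in fission and lipid transfer. It was at 49.7, 51.1 and 53.2 CPM in sham, 34.9, 36.2 and 38.0 CPM at 1 day and 46.3, 42.3 and 41.2 CPM at 14 days. The 3 groups did not overlap and the spread within each was small. Slc25a46 fell by 0.50 at 1 day (SE 0.08, edgeR adjusted p = 0.000576). With scaling by total count alone Slc25a46 was at -0.018 and lost that call (edgeR adjusted p = 0.933). It was 0.25 higher at 14 days than at 1 day (SE 0.08, edgeR adjusted p = 0.0254) but at -0.13 with scaling by total count alone. The second call was lost without mouse 4, mouse 5, library A or library B (edgeR adjusted p = 0.0755, 0.0675, 0.0909 and 0.053).

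Slc25a47 and Slc25a53 are carriers of low level here. Slc25a47, known from liver, was at 1.30, 1.48 and 0.831 CPM in sham, 0.883, 0.755 and 1.30 CPM at 1 day and 0.519, 0.674 and 0.654 CPM at 14 days. The 14-day libraries lay below both other groups. It fell by 1.00 at 14 days (SE 0.30, edgeR adjusted p = 0.0446), a call lost on leaving out any of the 14-day libraries A, B and C, mouse 4, mouse 5, sham mouse 1 or sham mouse 2 (edgeR adjusted p between 0.0505 and 0.204). Slc25a53 was at 1.13, 1.62 and 0.958 CPM in sham, 1.04, 1.19 and 1.16 CPM at 1 day and 1.63, 1.76 and 2.29 CPM at 14 days. All 14-day libraries lay above both other groups. It was 0.74 higher at 14 days than at 1 day (SE 0.23, edgeR adjusted p = 0.0192), a call lost without mouse 4 or library C (edgeR adjusted p = 0.0723 and 0.0623). With scaling by total count alone Slc25a53 was 0.36 higher, also without a call (edgeR adjusted p = 0.347). Slc25a45 passed no test, and Slc25a43 and Slc25a54 had 51 and 2 counts in all libraries and were not tested.

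Genes of the same family under other symbols and other mitochondrial transporters were set beside the members. Ucp3, an uncoupling protein of muscle, was at 26.3, 12.7 and 21.7 CPM in sham, 1.18, 1.07 and 4.66 CPM at 1 day and 25.4, 23.4 and 14.8 CPM at 14 days. It fell by 3.23 at 1 day (SE 0.52, edgeR adjusted p = 0.000951), further than any Slc25a member. Ucp2, found in many immune cells, rose by 0.65 at 1 day, and the carrier-like outer membrane proteins Mtch2 and Mtch1 fell by 0.56 and 0.46. With scaling by total count alone Mtch2 was at -0.09 and Mtch1 turned to 0.03, both without a call (edgeR adjusted p = 0.641 and 0.895). At 14 days Mtch1 rose by 0.36 and the other 3 did not pass. Ucp1 had 0 counts, and of the other 4 adipocyte markers Adipoq, Plin1 and Cidec were at most at 0.167 CPM in any library. The fourth, Cidea, was at 3.69 to 7.41 CPM and fell by 0.63 at 1 day (edgeR adjusted p = 0.00671). With scaling by total count alone Cidea was at -0.16 and lost that call (edgeR adjusted p = 0.564). Of 22 transporters of pyruvate, calcium, serine and other solutes, 10 fell and 5 rose at 1 day, where 24.8% of all tested genes fell and 29.4% rose. At 14 days 5 fell and 1 rose, where 5.64% of all tested genes fell and 8.75% rose. The outer membrane channel Vdac1, the most abundant of them per length that passed, fell by 0.87 at 1 day, and the pyruvate carrier subunit Mpc2 by 1.22. Smdt1, a part of the calcium uniporter, fell by 0.57. The 5 that rose, named because they are few, were Tspo, Sfxn1, Sfxn3, Sfxn5 and Mcub, with log2 folds of 0.97 to 1.47.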

How the data were processed

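RNA sequencing counts of 9 libraries, 3 mice per group, were analysed. The authors deposited raw, whole-number gene counts, made from stranded libraries of total RNA depleted of ribosomal RNA, per the labels' protocols. STAR 2.7.1a and the build GRCm38 (mm10) are named in the submitters' processing notes; for the counting program, its strand setting and its annotation, the entry is: not given in the sources used here. Gene IDs were matched to GENCODE vM21 (36345 of 38293). The members and lists were chosen with earlier results of these data known. Counts of all genes were fitted in edgeR 4.0.16 (TMM, filterByExpr, robust quasi-likelihood test, Benjamini-Hochberg over 14124 genes) in R 4.3.3, with all 9 libraries in 1 fit. The fit was tested on simulated data with few changed genes and a fixed spread, which cannot test the scaling or spread of these libraries. CPM use the TMM-scaled library size, and lengths are the union of a gene's exons. Sums and shares were compared by exact permutation tests (scipy 1.17.1). Alternatives used DESeq2 1.42.0, limma-voom (limma 3.58.1), other scalings and filters, 2 groups alone and each library left out.

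Values in each library are given for called members with the highest per-length level, up to 3 in each role class, and for the 5 largest called folds in each comparison and direction, plus Slc25a5. Other transporters are named if called, at most 5 a list by per-length level, unless said otherwise. Promoters shown are those with a motif match among members given by library (1 of 2 entries of Slc25a23); those of Slc25a31 and Slc25a14, not given by library, are not shown. Results of 2 genes are counted in totals but not reported here. Nothing in the labels says how the mice were batched. The p-values of edgeR weigh a difference between groups against the spread between these mice, estimated over all 9 libraries. No 2 libraries of a group agreed within sampling noise (chi-square per degree of freedom 7.28 to 97.5).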

Additional observations from a re-analysis of the deposited data

Results flagged for a closer look

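The effect at 14 days differed from that at 1 day by the edgeR test of the difference itself for 17 members; the shared sham group cancels in it, so it equals 14 days against 1 day. Positive differences, given on the log2 scale, were found for Slc25a34 (1.47), Slc25a13 (1.17), Slc25a11 (0.90), Slc25a42 (0.83), Slc25a27 (0.81), Slc25a53 (0.74), Slc25a36 (0.60), Slc25a12 (0.60), Slc25a3 (0.57), Slc25a16 (0.38) and Slc25a46 (0.25). Slc25a16 and Slc25a46 turned to -0.01 and -0.13 with scaling by total count alone. Negative differences were found for Slc25a23 (-0.93), Slc25a25 (-0.76), Slc25a44 (-0.60), Slc25a24 (-0.54), Slc25a37 (-0.50) and Slc25a28 (-0.48). No rule for outlying samples was applied to groups of 3 libraries. The position of mouse 6 is described above, and each library was left out in turn.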

How the results depend on the processing

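Of 46 called values of members over the 3 comparisons, 14 kept direction and call under every alternative run, 26 lost the call or turned with scaling by total count alone, and 19 lost it with at least 1 library left out. Under total count alone, members at 1 day numbered 11 higher and 5 lower (48.6% and 7.49% of all tested genes), at 14 days 0 lower (0.793% of all), and between the times 3 higher and 13 lower (7.55% and 38.7% of all). With that scaling the summed CPM ratio was -0.36 at 1 day and 0.053 between the times. The values that turned, with main folds smaller than the shift of the median of all genes, were Slc25a15 (0.15), Slc25a16 (0.088) and Slc25a39 (0.13) at 1 day, and Slc25a16 (-0.0070) and Slc25a46 (-0.13) between the times. At 14 days 2 members rose with DESeq2, with no filter on low counts and with both groups alone. Of all tested genes 8.77%, 5.31% and 10.8% rose in those fits. With both groups alone 13 members fell (34.2%), where 9.95% of all tested genes fell. Leaving out each library in turn gave 4 to 5 higher and 15 to 18 lower at 1 day, 1 to 3 higher and 0 to 14 lower at 14 days, and 7 to 14 higher and 3 to 6 lower between the times. The summed CPM ratio then ranged from -0.98 to -0.70 at 1 day, from -0.52 to -0.31 at 14 days and from 0.31 to 0.59 between the times. The difference in Slc25a5 share ranged from 2.82 to 4.58, from 0.84 to 1.92 and from -3.29 to -1.53 percentage points. No paired analysis was possible because the groups share no replicate numbers. With 3 mice a group no exact permutation p can fall under 0.1, and 7 members had too few counts to be tested.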

Other observations

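SLC25 proteins reach the inner membrane through the outer membrane TOM pore, the small TIM chaperones and the TIM22 complex. Of 15 tested genes of this route, 5 fell and 1 rose at 1 day, where 24.8% of all tested genes fell and 29.4% rose. Those that fell were Timm8b, Tomm7, Timm22, Tomm22 and Timm29, with log2 folds of -0.73, -0.52, -0.44, -0.32 and -0.24, and Timm22, Tomm22 and Timm29 turned sign with scaling by total count alone. Tomm70a, a receptor for carrier precursors, rose by 0.34 at 1 day (edgeR adjusted p = 0.0165). It was at 48.8, 48.9 and 52.4 CPM in sham, 66.9, 69.0 and 53.7 CPM in mice 4, 5 and 6, and 46.7, 46.2 and 43.8 CPM in libraries A, B and C, with mouse 6 nearest to sham. At 14 days Tomm40, which forms the pore, and Timm13 fell by 0.71 and 0.52 and 0 of the 15 rose, where 5.64% of all tested genes fell and 8.75% rose. Tomm40, Tomm70a and Timm22 were named after their values were seen.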
